A study of Homo sapiens with 6 samples.

Results

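The kinesin motor genes of RD cells were taken as every row of the count table whose symbol is KIF followed by a digit and optional further digits or letters, together with KIFC1, KIFC2 and KIFC3. Of 58735 rows, 47 matched this pattern and 42 were kept. The 5 rows left out were KIF1BP, which encodes a kinesin-binding protein without a motor domain, and the pseudogenes KIF28P, KIF3AP1, KIF4CP and KIF18BP1. By the textbook roles of the encoded proteins the 42 genes were divided into 14 mitotic, 9 ciliary, 14 cargo and 5 other kinesins. RD is an established human cell line of embryonal rhabdomyosarcoma, a soft tissue tumor with features of skeletal muscle. RD cells transduced with lentivirus encoding a scrambled shRNA (n = 3, control) were compared with RD cells transduced with lentivirus encoding TAK1 shRNA 1 (n = 3, TAK1 knockdown), and poly(A)-enriched RNA was sequenced. TAK1 is a kinase that relays signals from cytokine and growth factor receptors and is encoded by MAP3K7. A single cell line and a single TAK1 shRNA were sequenced, so an effect of TAK1 loss and an effect of that construct cannot be told apart. The labels give no time after transduction.

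Kinesins are ATP-driven motors that walk along microtubules or shorten them. Mitotic kinesins build the spindle, move chromosomes and divide the cell, and many of their genes are transcribed mainly in G2 and M phase, in part through a promoter pair of CCAAT boxes and a cell cycle genes homology region (CHR). Ciliary kinesins carry intraflagellar transport (IFT) trains into the cilium, an antenna that most cells assemble when they are not dividing, or control the length of its microtubules. Cargo kinesins move vesicles, mitochondria and endosomes, and several of them are best known from neurons, where they act over long axons.

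The targeted gene was lower in every TAK1 knockdown sample. MAP3K7 was measured at 77.9, 76.5 and 77.6 CPM (counts of the gene relative to the scaled library size) in the control samples and at 30.5, 33.6 and 29.9 CPM in the TAK1 knockdown samples, a log2 fold change of -1.30 (SE 0.062, adjusted p = 4.45e-14). The 6 samples held between 28839898 and 34469323 counts, and all replicate pairs differed by more than sampling noise. Nothing in the labels says whether replicates came from separate cultures, so p-values measure the spread between these samples, which may be technical. Means are given ± SD with n = 3. RD cells held RNA of the muscle lineage in both groups, with MYOD1 at 263 CPM and DES at 340.5 CPM in control cells, while MYF5 had 0 counts in all 6 samples. Of the 7 muscle markers tested, MYOD1 (log2 fold change 0.37) and MYOG (0.27) rose, CHRNA1 (-0.40) and MYL4 (-0.37) fell, and DES, MYH3 and PAX7 were not called. The part of the muscle markers in the kinesin results was not tested. Of 8 markers of other lineages, 7 were below the expression filter, and KRT18, also expressed by many tumor lines, fell from 56.1 ± 3.61 to 26.4 ± 1.10 CPM.

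The kinesin family did not move as a unit after TAK1 knockdown. Of 42 members, 37 passed the expression filter, 10 fell, 6 rose and 21 were not called. A gene was called when its p from the edgeR quasi-likelihood test, adjusted by Benjamini-Hochberg across the 15935 genes that passed, was under 0.05 and its log2 fold change of TAK1 knockdown over control was at least 0.25 in size. The share of kinesins called lower was 27.0%, beside 11.3% of all genes tested (1805 genes), and the share called higher was 16.2%, beside 11.8% (1879 genes). Of all calls, 51.0% were higher, against 62.9% when counts were scaled by library size alone. All 3 knockdown samples lay below all 3 control samples for 15 kinesins, where 22.2% of all genes did so, and above them for 8, where 21.6% did so. The 5 members under the filter had at most 12 counts in any sample: KIF2B, KIF4B, KIF19, KIF25 and KIF12.

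**Figure D1:**
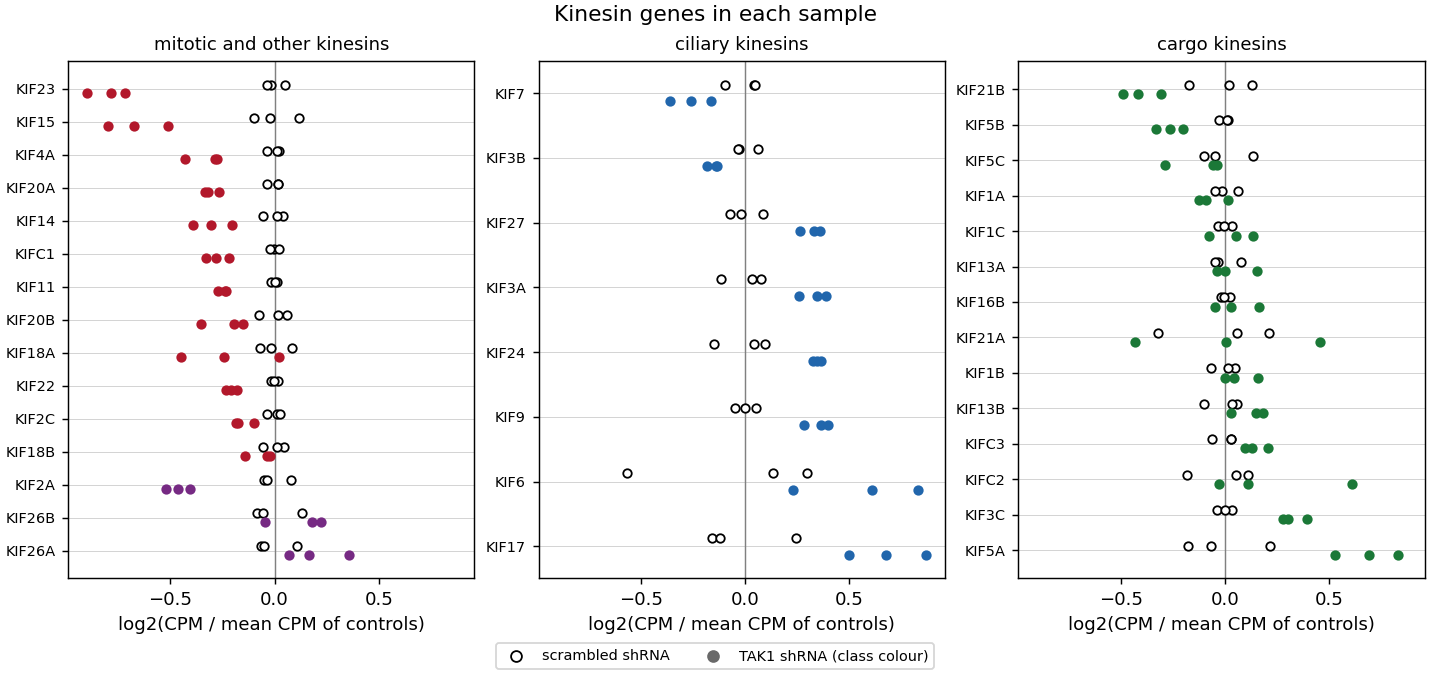
Each kinesin that passed the filter is a row, and the x axis gives its log2 CPM relative to the mean of the 3 control samples, with open points for scrambled shRNA and filled points for TAK1 shRNA. The 12 mitotic kinesins have knockdown samples to the left of 0 apart from 1 sample of KIF18A, most ciliary kinesins lie to the right, and cargo kinesins lie on both sides.

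The classes were described one by one. Among mitotic kinesins 6 of 12 fell and 0 rose, with a median log2 fold change of -0.26. Among ciliary kinesins 4 of 8 rose and 1 fell, with a median of 0.34. Among cargo kinesins 2 of 14 rose and 2 fell (14.3% each), close to the 11.8% and 11.3% of all genes tested, with a median of 0.06 beside 0.02 over all genes tested. These are counts and medians over the members that passed the filter, and the differences between classes were not tested.

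Mitotic kinesins had lower values throughout the class. All 12 tested members had a log2 fold change below 0, from -0.80 to -0.07, and 11 of them had an adjusted p under 0.05, although only 6 also passed the fold threshold. Over all 15935 genes tested, 7565 had a log2 fold change below 0, and 2734 of these had an adjusted p under 0.05. The summed level of the class was 1669, 1681 and 1701 CPM in the control samples and 1343, 1421 and 1389 CPM in the TAK1 knockdown samples. All 3 knockdown samples lay below all 3 control samples for 10 of the 12, where 22.2% of all genes tested did so. Proliferation markers moved with them. Of 9 such markers (MKI67, TOP2A, PCNA and the 6 subunits of the MCM helicase) 6 fell and 0 rose, where 11.3% and 11.8% of all genes tested did so. The summed level of these markers went from between 3190 and 3222 CPM in control samples to between 2553 and 2680 CPM in knockdown samples. Their part in the mitotic kinesin result was not tested. In bulk RNA, fewer cells in G2 and M phase and less of a transcript in each such cell cannot be told apart.

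KIF23 fell most among all kinesins. It encodes MKLP1, the motor of the centralspindlin complex that bundles microtubules between separating chromosomes and directs cytokinesis. KIF23 was measured at 98.8, 103 and 97.4 CPM in the control samples and at 53.4, 60.7 and 57.9 CPM in the TAK1 knockdown samples, a log2 fold change of -0.80 (SE 0.057, adjusted p = 5.20e-11). The highest knockdown sample thus lay below the lowest control sample, and the fitted level in knockdown cells was 0.575 times that of control cells. KIF15, a motor that helps to keep the spindle bipolar, was measured at 94.9, 100.02 and 110.2 CPM in control and 58.4, 71.4 and 63.7 CPM in knockdown samples, a log2 fold change of -0.65 (SE 0.066, adjusted p = 2.45e-08). KIF23 (GRCh38 chromosome 15, 69414246 to 69448427, plus strand, GENCODE 44) and KIF15 (chromosome 3, 44761721 to 44873376, plus strand) kept their call in all 14 alternative fits.

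The other 4 called mitotic kinesins fell by smaller and similar amounts, without overlap between the groups. KIF4A, a chromosome-bound motor that also sets the length of the spindle midzone, was measured at 112, 117 and 116 CPM in control and 85.6, 94.4 and 95.0 CPM in knockdown samples, a log2 fold change of -0.33 (SE 0.052, adjusted p = 2.12e-05). KIF20A, which carries the chromosomal passenger complex to the midzone, was measured at 155, 149 and 155 CPM in control and 122, 122.6 and 127 CPM in knockdown samples, a log2 fold change of -0.31 (SE 0.047, adjusted p = 1.44e-05). KIF4A has a near-identical intronless copy, KIF4B, which had 2 counts in 1 knockdown sample and 0 elsewhere, and how reads that fit both copies were counted is not given in the sources used here. KIF14, needed late in cytokinesis, was measured at 109.8, 118 and 115 CPM in control and 87.1, 92.3 and 99.3 CPM in knockdown samples, a log2 fold change of -0.30 (SE 0.054, adjusted p = 1.13e-04). KIFC1, a minus-end-directed motor that gathers extra centrosomes into spindle poles, was measured at 159, 162 and 157 CPM in control and 137, 131 and 126 CPM in knockdown samples, a log2 fold change of -0.28 (SE 0.048, adjusted p = 6.19e-05). KIF14 and KIFC1 missed the fold threshold when counts were scaled by library size alone, with log2 fold changes of -0.2496 and -0.228.

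The 3 uncalled mitotic kinesins with the highest mean CPM were KIF11, KIF2C and KIF22. They were grouped by the call, and KIFC1 (-0.28) and KIF20A (-0.31), which were called, were more abundant than KIF22. KIF11 (Eg5), which pushes the spindle poles apart, was measured at 286, 280.1 and 284 CPM in control and 235, 241 and 241 CPM in knockdown samples. These groups stood apart, but the log2 fold change of -0.247 (SE 0.043, adjusted p = 6.98e-05) lay just inside the fold threshold, and KIF11 was called lower in 6 of 14 alternative fits. KIF2C (MCAK), which shortens microtubules at kinetochores, was measured at 222, 215 and 225 CPM in control and 194, 206 and 196 CPM in knockdown samples, a log2 fold change of -0.15 (SE 0.046, adjusted p = 0.0119). KIF22, which holds chromosome arms toward the equator, was measured at 138, 135 and 136 CPM in control and 118, 120.4 and 116 CPM in knockdown samples, a log2 fold change of -0.21 (SE 0.047, adjusted p = 0.00113). All 3 were therefore lower in every knockdown sample without reaching the threshold on size. The remaining uncalled members were KIF20B (-0.23), KIF18A (-0.21) and KIF18B (-0.07, adjusted p = 0.357) on the log2 scale. KIF18A and KIF18B, motors that limit microtubule growth at plus ends, were the only tested mitotic members whose groups overlapped. Without knockdown replicate 2, KIF18A had a log2 fold change of -0.34 (adjusted p = 0.000255) and was called, and without knockdown replicate 3 or control replicate 1 KIF20B was called at -0.28 or -0.27. KIF2B, another mitotic depolymerase, had 0 counts in all samples.

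The fall of KIF23 and KIF15 was uneven with respect to motors that act beside them. KIF23 counts amounted to 63.8%, 69.0% and 62.8% of those of KIF20A, the other midzone motor, in control samples and to 43.9%, 49.5% and 45.5% in knockdown samples. KIF15 counts amounted to 33.2%, 35.7% and 38.8% of those of KIF11 in control samples and to 24.9%, 29.7% and 26.5% in knockdown samples. Neither pair of groups overlapped, and since a percentage within a sample does not depend on scaling, KIF23 and KIF15 were lower relative to these neighbors whatever the library size. These pairs, and those given for other classes, were chosen after the values were seen and are given as a description, since with 3 samples a group an exact two-sided permutation test cannot give a p below 0.1.

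The mitotic kinesins shared promoter letters. Promoter sequences (250 bases before to 50 after the transcription start) were taken from RefSeq on GRCh38.p14 for 34 of the 42 members, including all 14 mitotic ones. The CHR letters TTTGAA or TTCGAA, searched on both strands, were present in 11 of 14 mitotic genes (78.6%) and in 19.5% of 27305 genes with such a window. CCAAT on either strand was also present in 11 of 14, against 39.7% of all genes, and both were present in 10 of 14 (71.4%), against 9.02%. CHR letters were found in 1 of 7 ciliary genes (KIF24), 1 of 9 cargo genes (KIF5B) and 0 of 4 other genes with a window. They did not divide the mitotic class by its response, being present in 5 of the 6 genes called lower and in 5 of the 6 tested and not called. The stretches printed here come from the 3 mitotic genes with the largest falls (KIF23, KIF15 and KIF4A) and from a pair of uncalled genes with the same letters (KIF11 and KIF18A). A further stretch comes from KIF20A, which fell without the CHR letters searched for. Each is written 5′ to 3′ on the strand of the gene, with CHR letters (TTTGAA, or TTCAAA on the other strand) and CCAAT letters (CCAAT, or ATTGG on the other strand) in capitals.
KIF23, chr15:69414279-69414308, plus strand: gcgctgATTGGcccgTTTGAAatgcgccag
KIF15, chr3:44761744-44761773, plus strand: gatccaagcgccaaaTTCAAAtttgcggcc
KIF4A, chrX:70290024-70290103, plus strand: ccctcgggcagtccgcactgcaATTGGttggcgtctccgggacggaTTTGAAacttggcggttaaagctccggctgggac
KIF11, chr10:92593050-92593129, plus strand: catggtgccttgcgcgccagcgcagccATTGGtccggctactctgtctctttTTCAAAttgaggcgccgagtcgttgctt
KIF18A, chr11:28108157-28108236, minus strand: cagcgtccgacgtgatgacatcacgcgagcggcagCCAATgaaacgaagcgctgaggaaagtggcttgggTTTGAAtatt
KIF20A, chr5:138179012-138179111, plus strand: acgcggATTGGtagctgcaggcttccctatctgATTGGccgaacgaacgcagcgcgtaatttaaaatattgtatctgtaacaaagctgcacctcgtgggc

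Distances were counted from the RefSeq start, which can differ from the GENCODE start. The stretches of KIF23, KIF15, KIF11 and KIF20A lie inside the GENCODE spans of these genes. In KIF23 the CCAAT letters began 64 bases and the CHR letters 55 bases before the start, in KIF4A 58 and 34 bases, in KIF11 53 and 28 bases, and in KIF18A 45 and 10 bases. The KIF15 window held CHR letters 35 bases before the start and no CCAAT letters, and was the only mitotic window with E2F-like letters (TTCGCGC or TTTGGCGC, in 2.87% of all 35116 windows). The KIF20A window held CCAAT letters 94 and 67 bases before the start and no CHR letters. KIF2C and KIF2B also lacked CHR letters. Other spellings of the CHR were not searched, so KIF20A, KIF2C and KIF2B are only known to lack TTTGAA and TTCGAA. A match describes letters in these windows and not binding.

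Ciliary kinesins rose in 4 of 8 tested members, and KIF7 fell. KIF17, a motor that enters cilia and also works in dendrites, rose most. It was measured at 8.86, 6.70 and 6.88 CPM in control and 13.7, 11.9 and 10.6 CPM in knockdown samples, a log2 fold change of 0.69 (SE 0.12, adjusted p = 9.47e-05). The groups did not overlap and KIF17 (chromosome 1, 20664014 to 20718017, minus strand) kept its call in all alternative fits. KIF3A, a subunit of the heterotrimeric motor that drives IFT trains toward the ciliary tip, was measured at 15.3, 13.8 and 15.8 CPM in control and 17.9, 19.0 and 19.5 CPM in knockdown samples, a log2 fold change of 0.33 (SE 0.087, adjusted p = 0.00407). Its partner subunit KIF3B, which is the more abundant transcript, was measured at 85.5, 85.2 and 91.2 CPM in control and 79.4, 76.9 and 79.2 CPM in knockdown samples, a log2 fold change of -0.15 (SE 0.052, adjusted p = 0.026), and was not called. The KIF3A and KIF3B samples thus separated in opposite directions, and KIF3A counts as a share of KIF3B counts went from 17.9%, 16.2% and 17.3% in control samples to 22.5%, 24.7% and 24.7% in knockdown samples. KIFAP3, the adaptor subunit of the same motor, stood at 38.1 ± 0.423 and 35.6 ± 2.01 CPM (adjusted p = 0.288).

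KIF24, a depolymerase that acts with CP110 at the mother centriole to hold back cilium assembly, also rose. It was measured at 20.4, 19.6 and 17.2 CPM in control and 24.2, 23.9 and 24.5 CPM in knockdown samples, a log2 fold change of 0.35 (SE 0.081, adjusted p = 0.00154). KIF24 is therefore a member of the rising set whose known role is to restrain cilia. KIF9, a motor of motile cilia, was measured at 6.26, 6.03 and 5.84 CPM in control and 7.97, 7.79 and 7.36 CPM in knockdown samples, a log2 fold change of 0.35 (SE 0.12, adjusted p = 0.0273). KIF9 lost its call with no expression filter (log2 fold change 0.34, adjusted p = 0.0566) and without knockdown replicate 1 (0.33, 0.0677), knockdown replicate 2 (0.34, 0.0597), control replicate 2 (0.35, 0.0784) or control replicate 3 (0.32, 0.0955). Its exons overlap those of the antisense gene KIF9-AS1, which rose from 2.77 to 4.05 CPM, and since use of strand in counting is not given in the sources used here, reads of the pair cannot be told apart. The exons of KLHL18, also on the opposite strand, overlap those of KIF9 as well, and KLHL18 stood at 55.7 and 62.9 CPM (0.18 on the log2 scale, adjusted p = 0.0198), under the fold threshold. The letters of sites for RFX factors, which regulate ciliary genes (GTTGCCAT or GTTACCAT on either strand), were present in 2 of 9 ciliary windows, those of KIF9 and KIF24, and in 1.89% of all windows.

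KIF7, which sits at the ciliary tip and regulates Hedgehog signaling, was measured at 21.3, 23.5 and 23.5 CPM in control and 17.7, 20.4 and 19.0 CPM in knockdown samples, a log2 fold change of -0.26 (SE 0.082, adjusted p = 0.0161). The groups did not overlap, but the call was lost without knockdown replicate 1 (log2 fold change -0.21, adjusted p = 0.0629), control replicate 2 (-0.24, 0.0793) or control replicate 3 (-0.24, 0.0751), and with library size scaling alone (-0.21, 0.0549) or upper-quartile scaling (-0.24, 0.0258). The exons of KIF7 overlap those of TICRR, a replication gene on the opposite strand, which fell from 59.3 to 48.7 CPM. KIF27, the closest relative of KIF7, was measured at 3.66, 3.40 and 3.28 CPM in control and 4.14, 4.42 and 4.33 CPM in knockdown samples and was not called (0.32 on the log2 scale, adjusted p = 0.126). KIF6, another motor of motile cilia, was scarce, at 1.16, 1.30 and 0.714 CPM in control and 1.88, 1.61 and 1.24 CPM in knockdown samples (adjusted p = 0.153). KIF19, which shortens motile cilia, had 2, 5 and 4 counts in control and 8, 1 and 7 counts in knockdown samples and was not tested. KIF3B was the most abundant ciliary kinesin, and the summed level of the class was 162, 159 and 164 CPM in control and 167, 166 and 166 CPM in knockdown samples.

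**Figure D2:**
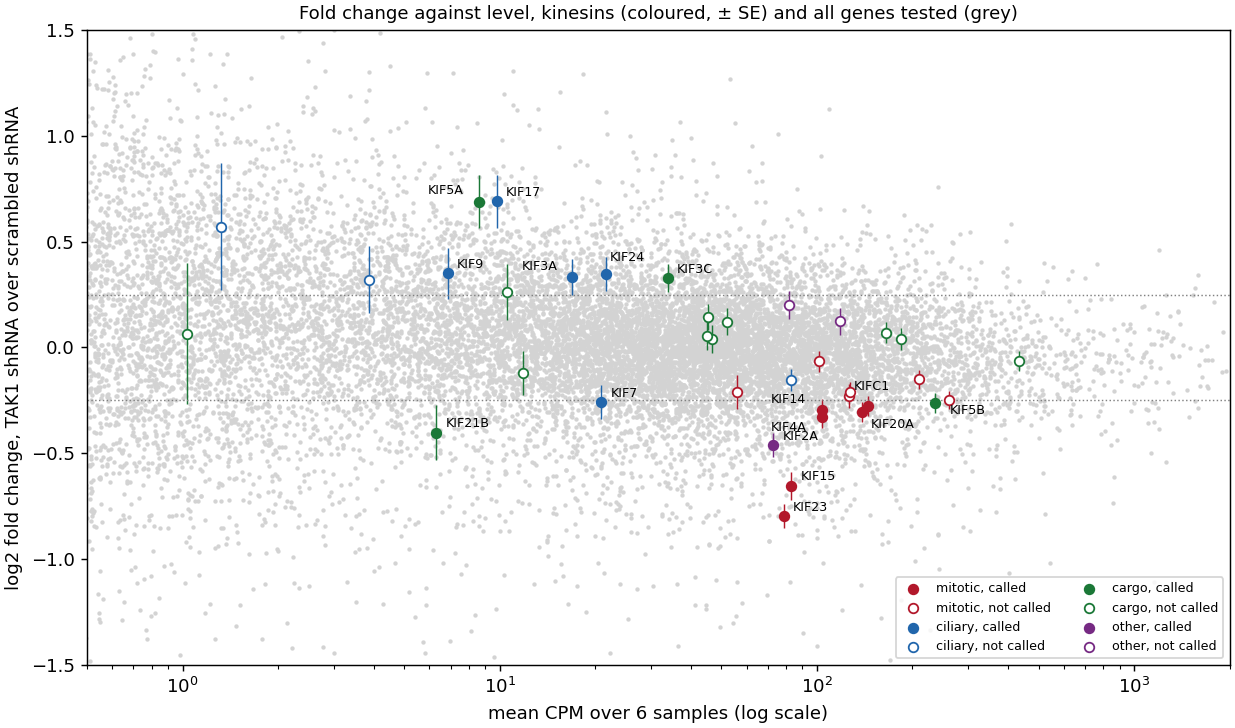
The y axis gives the log2 fold change of TAK1 shRNA over scrambled shRNA and the x axis the mean CPM over 6 samples on a log scale, with kinesins colored by class (bars show the SE, filled points were called) and genes tested in grey. Of 15935 genes, 1219 lie outside the axes. KIF23 and KIF15 stand lowest at mean levels below 100 CPM, and KIF17 and KIF5A stand highest among called kinesins at mean levels below 10 CPM.

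Cargo kinesins had 2 members called in each direction and 10 not called. KIF5A, the neuronal heavy chain of conventional kinesin, rose most. It was measured at 5.80, 6.25 and 7.62 CPM in control and 10.6, 11.7 and 9.48 CPM in knockdown samples, a log2 fold change of 0.69 (SE 0.12, adjusted p = 9.95e-05). The ubiquitous heavy chain KIF5B was measured at 259.8, 252 and 259 CPM in control and 205, 214 and 224 CPM in knockdown samples, a log2 fold change of -0.26 (SE 0.046, adjusted p = 7.13e-05). KIF5A thus rose and KIF5B fell, each without overlap between groups. KIF5A counts as a share of KIF5B counts went from 2.23%, 2.48% and 2.94% in control samples to 5.18%, 5.46% and 4.24% in knockdown samples, so KIF5B remained the main heavy chain. The second neuronal heavy chain, KIF5C, was measured at 11.9, 11.5 and 13.5 CPM in control and 10.1, 12.0 and 11.8 CPM in knockdown samples and was not called (adjusted p = 0.416).

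The KIF5B call rested on the fold threshold. Its log2 fold change was -0.23 without knockdown replicate 1, -0.21 with library size scaling alone and -0.246 with upper-quartile scaling, all short of the threshold, and the adjusted p was 0.000583 or lower in each. KIF5A has exons that overlap DCTN2, a dynactin subunit on the opposite strand, which stood at 120.3 and 115 CPM and was not called (adjusted p = 0.359). KIF5A (chromosome 12, 57546026 to 57586633, plus strand) kept its call in all alternative fits. Genes on the opposite strand also overlap exons of KIF24 (UBAP1), KIF4A (PDZD11), KIF20A (CDC23 and BRD8) and KIF2A (DIMT1), and none of these 5 was called. No values were read for other overlapping genes, among them KIF23-AS1 opposite KIF23, RPL12P1 opposite KIFC1 and SERPINH1P1 opposite KIF24. Genes without a symbol, also not read, overlap KIF2A on its own strand. On the opposite strand such genes overlap KIF2C, KIF22, KIF3A, KIF27, KIF5C, KIF13B and KIFC3.

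KIF3C, which can replace KIF3B as the partner of KIF3A and is best known from neurons, rose as well. It was measured at 29.3, 30.7 and 30.001 CPM in control and 37.1, 36.4 and 39.5 CPM in knockdown samples, a log2 fold change of 0.33 (SE 0.067, adjusted p = 4.28e-04). KIF3C counts amounted to 34.2%, 36.1% and 32.9% of KIF3B counts in control samples and to 46.7%, 47.4% and 49.8% in knockdown samples. Of the 3 motor subunits of this kinesin, KIF3A and KIF3C therefore rose while KIF3B was lower in every knockdown sample without passing the fold threshold. KIF21B, a neuronal motor that also restrains microtubule growth, was measured at 7.88, 7.30 and 6.39 CPM in control and 5.81, 5.38 and 5.12 CPM in knockdown samples, a log2 fold change of -0.40 (SE 0.13, adjusted p = 0.019). Its call was lost without knockdown replicate 3 (log2 fold change -0.37, adjusted p = 0.0525), control replicate 1 (-0.33, 0.0977) or control replicate 2 (-0.39, 0.0643).

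The abundant vesicle carriers KIF1A, KIF1C and KIF1B were not called. KIF1A, a carrier of synaptic vesicle precursors in neurons, had the highest CPM of all kinesins in these tumor cells, at 461, 438 and 427 CPM in control and 448, 406 and 415 CPM in knockdown samples (adjusted p = 0.316). KIF1C, which moves dense-core vesicles, was measured at 186, 178 and 181 CPM in control and 199.6, 172 and 189 CPM in knockdown samples (adjusted p = 0.605). KIF1B, which moves mitochondria and vesicles, was measured at 166, 154 and 162 CPM in control and 166, 161 and 179.5 CPM in knockdown samples (adjusted p = 0.319). The groups overlapped for all 3. The endosomal motors KIF13A, KIF13B and KIF16B, the minus-end motors KIFC2 and KIFC3, and KIF21A were also not called, with log2 fold changes from 0.04 to 0.26. KIFC3 was the only one of these 6 whose groups did not overlap, at 43.0 ± 1.55 and 47.5 ± 1.90 CPM (adjusted p = 0.0756). KIFC2 was called higher without knockdown replicate 3, at 0.38 with an adjusted p of 0.0411.

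Of the kinesins in no class, KIF2A fell. It encodes a microtubule depolymerase that works at spindle poles, in axons and during cilium disassembly. KIF2A was measured at 81.5, 82.4 and 89.3 CPM in control and 58.9, 61.1 and 63.8 CPM in knockdown samples, a log2 fold change of -0.46 (SE 0.056, adjusted p = 4.80e-07). The groups did not overlap, and KIF2A counts as a share of those of KIF2C, its mitotic relative, went from 36.6%, 38.3% and 39.7% to 30.3%, 29.6% and 32.6%. KIF26A, an atypical kinesin without motor activity, was measured at 82.1, 72.8 and 73.5 CPM in control and 97.5, 85.4 and 79.9 CPM in knockdown samples, and its log2 fold change of 0.20 (adjusted p = 0.0186) was under the fold threshold. Without knockdown replicate 3 or control replicate 1 it was 0.25 or 0.26 and KIF26A was called higher. Its relative KIF26B was measured at 124, 107 and 109 CPM in control and 129, 110.0 and 132 CPM in knockdown samples (adjusted p = 0.144). KIF25 had 2 to 8 counts and KIF12 had 0 to 12 counts per sample.

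Transcript levels were set against each other after division by the length of the main annotated transcript, as CPM per kilobase. In control cells the mitotic kinesins KIF2C (77.2 ± 1.76 CPM per kilobase, SD, n = 3), KIFC1 (66.5 ± 1.02) and KIF22 (65.6 ± 0.740) stood highest, followed by KIF11 (56.5 ± 0.592) and KIF20A (49.5 ± 1.03). The first cargo kinesins in this order were KIF1A (48.4 ± 1.91) and KIF5B (43.8 ± 0.742), and the first ciliary kinesin was KIF3B (14.3 ± 0.555), at place 17 of 37. KIFC1 and KIF22, and KIF20A and KIF1A, overlapped in their control samples, as did 17 of the 36 neighboring pairs in all. KIF23 went from place 8 at 27.3 ± 0.825 to place 12 at 15.7 CPM per kilobase, and KIF15 from place 12 to place 16. The 6 kinesins that rose lay between place 25 (KIF3C) and place 33 (KIF5A) of the control order.

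**Figure D3:**
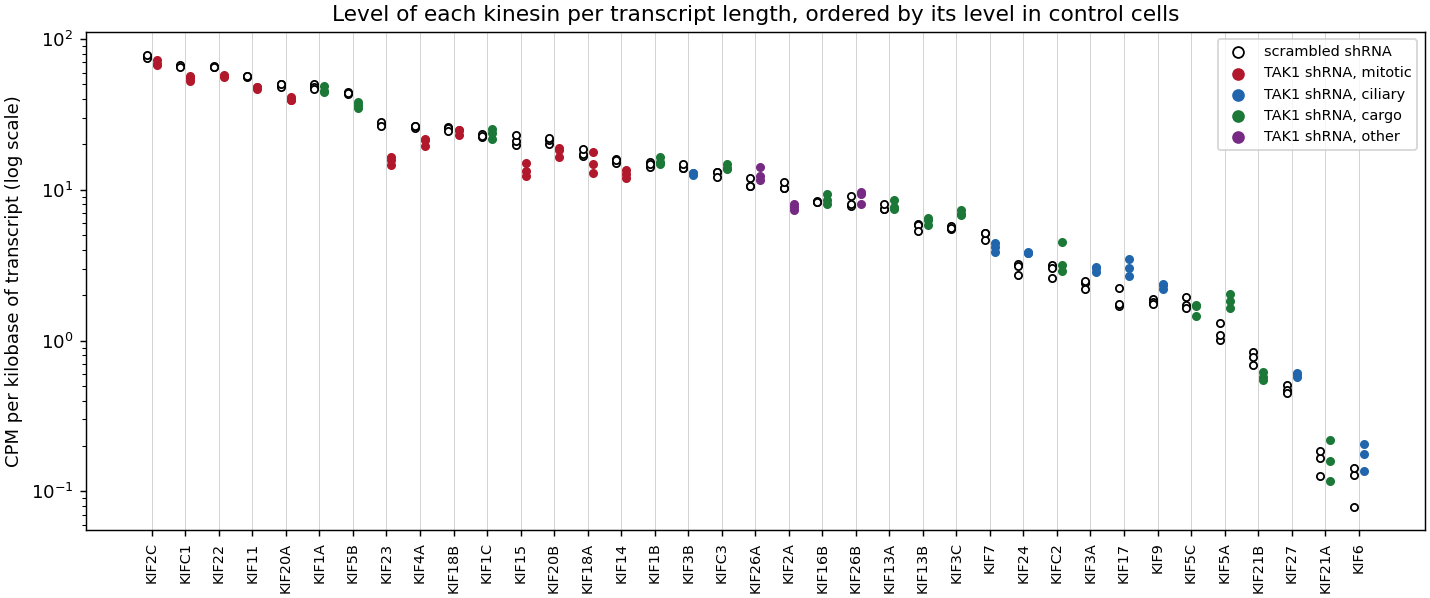
Kinesins are ordered on the x axis by their control level, and the y axis gives CPM per kilobase of transcript in each sample on a log scale, with open points for scrambled shRNA and colors for the class under TAK1 shRNA. KIF2C stands highest in control cells at 77.2 and KIF6 lowest at 0.117, and called lower members such as KIF23 show filled points clear of the open ones.

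Proteins that work with the kinesins were read from lists in the same fit. Among 20 spindle and midzone partners of mitotic kinesins, 12 fell and 0 rose, where 11.3% and 11.8% of all genes tested did so. Their median log2 fold change was -0.28. AURKA, the spindle pole kinase, fell from 159 ± 2.17 to 94.9 ± 2.00 CPM (-0.75, adjusted p = 7.44e-12), and ECT2, which centralspindlin recruits for cytokinesis, fell from 125 ± 5.05 to 75.1 ± 4.98 CPM (-0.73, adjusted p = 1.46e-10). These falls were close in size to that of KIF23, while RACGAP1, its partner in centralspindlin, was measured at 149, 147 and 149 CPM in control and 117, 128 and 132 CPM in knockdown samples and did not pass the fold threshold (-0.24). CENPE, a kinetochore motor whose symbol keeps it outside the rule, fell from 136 ± 9.03 to 107 ± 6.05 CPM (-0.35, adjusted p = 2.43e-05).

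Most genes of the transport trains that ciliary kinesins pull rose. Of 22 IFT genes tested, 14 rose and 1 fell, where 11.8% and 11.3% of all genes tested did so, with a median of 0.32. IFT140 rose from 26.9 ± 1.23 to 53.4 ± 1.93 CPM (0.99, adjusted p = 1.53e-11) and IFT122 from 33.4 ± 2.65 to 53.9 ± 0.475 CPM (0.69, adjusted p = 9.80e-09). Both belong to the IFT complex that works with dynein on the way back from the ciliary tip. TTC26 fell from 29.1 ± 1.44 to 22.2 ± 0.545 CPM, and 7 IFT genes were not called, among them WDR35 of the same complex as IFT140, at 84.1 ± 2.40 and 72.9 ± 2.38 CPM (-0.21, adjusted p = 0.00364). Of 5 genes of cytoplasmic dynein 2, the return motor, 3 rose and 0 fell, beside the same shares of all genes tested. DYNC2LI1 (0.50) and DYNC2H1 (0.38) led them.

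Of 18 kinesin light chains, accessory subunits and adaptors, 4 rose and 2 fell, with a median of 0.10, where 11.8% and 11.3% of all genes tested did so. The largest rises in this list were of JNK scaffolds that link kinesin to cargo, MAPK8IP1 from 49.7 ± 2.87 to 71.6 ± 7.93 CPM (0.53, adjusted p = 1.69e-06) and MAPK8IP3 from 58.6 ± 3.04 to 81.2 ± 10.1 CPM (0.47, adjusted p = 9.44e-06). The other JNK scaffolds, MAPK8IP2 (0.07, adjusted p = 0.871) and SPAG9 (-0.21, adjusted p = 0.00748), were not called. KIF1BP, the binding protein left out of the family, fell from 58.0 ± 4.05 to 45.0 ± 0.886 CPM (-0.36, adjusted p = 5.77e-05). Cytoplasmic dynein 1, dynactin and their adaptors move cargo the opposite way. Of their 31 genes, 7 fell and 2 rose, where 11.3% and 11.8% of all genes tested did so, with a median of -0.17. Those with the largest changes were DYNC1I1 (-2.04) and the light chain DYNLRB1 (0.95, adjusted p = 3.87e-11). DYNC1I1 stood at 0.604 ± 0.173 CPM in control and 0.147 ± 0.109 CPM in knockdown samples, close to the detection limit. It passed the expression filter only through the control samples, so its place among the 7 was tied to its being high there. DYNLRB1 rose from 42.4 ± 2.15 to 82.0 ± 7.87 CPM. Among abundant genes of this list, the dynactin subunit DCTN4 fell from 186 ± 5.37 to 108 ± 5.56 CPM (-0.79, adjusted p = 6.45e-12). DCTN1, also of dynactin, fell from 313 ± 5.37 to 203 ± 2.32 CPM (-0.63, adjusted p = 3.65e-11).

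**Figure D4:**
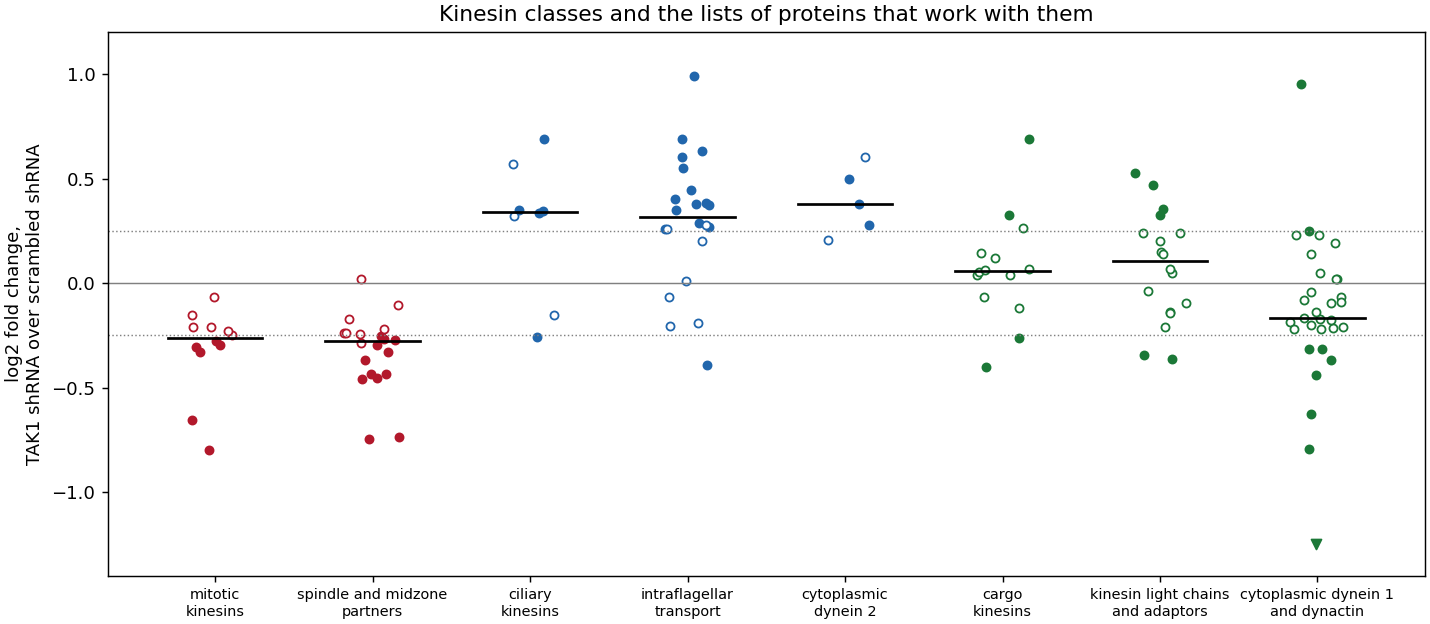
Each point is a gene that passed the filter, placed by its log2 fold change of TAK1 shRNA over scrambled shRNA (filled where called), and black lines are medians, from -0.28 for spindle and midzone partners to 0.38 for cytoplasmic dynein 2. The triangle is DYNC1I1, whose value of -2.04 lies below the axis, and dotted lines mark 0.25 on either side of 0.

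Regulators of these promoters were read in the same way. Of 12 factor genes known to act on mitotic promoters, 2 fell and 1 rose, where 11.3% and 11.8% of all genes tested did so. Their median log2 fold change was -0.15. LIN52 of the DREAM complex went from 27.5 ± 0.877 to 22.1 ± 0.609 CPM (-0.31, adjusted p = 0.00152), and TFDP1 also fell (-0.27). E2F5 went from 22.2 ± 0.556 to 28.6 ± 0.830 CPM (0.36, adjusted p = 3.35e-04). FOXM1 (-0.21), MYBL2 (-0.17), RBBP4 (-0.18) and RBL1 (-0.20) were lower and RBL2 (0.19) higher. These had adjusted p under 0.05 but did not pass the fold threshold. Of 8 tested genes listed as ciliary factors, 5 rose and 1 fell, where 11.8% and 11.3% of all genes tested did so. RFX1, RFX3, RFX5, RFX7 and FOXJ1 rose, GLIS3 fell, and RFX2 and MCIDAS were not called. The RFX genes were listed as a family, whatever the known role of each in cilia, so the count does not describe a ciliary program. FOXJ1, the master factor of motile cilia, rose on the log2 scale by 2.09, but from 0.176, 0.0318 and 0.162 CPM to 0.410, 0.595 and 0.576 CPM, levels close to the detection limit. It passed the expression filter only through the knockdown samples, so its place among the 5 was tied to its being high there. RFX3 rose from 4.73 ± 0.369 to 6.65 ± 0.812 CPM (0.49, adjusted p = 0.00814).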

How the data were processed

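Poly(A)-enriched RNA of 6 RD samples was sequenced by the authors, who used CASAVA for base calling, discarded reads of low quality or with adaptors, and then ran STAR against GRCh38. The authors deposited raw counts of reads per gene, without normalization. The counting program, annotation release and use of strand are not given in the sources used here. Samples were grouped by their labels.

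Differential expression was computed over the whole table with edgeR 4.0.16 in R 4.3.3 (default expression filter, quasi-likelihood test without a replicate term, trimmed mean of M-values, and Benjamini-Hochberg adjusted p across the 15935 genes that passed). CPM were divided by effective library sizes, and SE is the log2 fold change over the square root of its F statistic. The test was checked on simulated data. Calls needed a log2 fold change of 0.25 or more in size with an adjusted p under 0.05. Alternatives were DESeq2 1.42.0, limma 3.58.1 (voom), 3 normalizations, 2 filters, 2 fold thresholds, 2 class memberships, a replicate block and each sample left out. Transcript lengths and overlaps came from GENCODE 44, promoters from RefSeq (GRCh38.p14). Total counts of at least 28839898 per sample make replicate spread, not counting, the main error of abundant genes. Counting also weighs on members with fewer counts, such as KIF9 (178 to 275 counts per sample) and KIF21B (169 to 230).

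Every kinesin was named. Called members and up to 3 uncalled members per class with the highest mean CPM were given in all samples, and from other lists the 2 called genes with the largest change, with a few others added after their values were seen. Members and lists were chosen with earlier results of these data known. A planned description of protein sequences was not made.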

Additional observations from a re-analysis of the deposited data

How the results depend on the processing

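Of 518 comparisons of a tested kinesin with 1 of 14 alternative fits, 482 kept direction and call, 18 lost the call, 13 gained one and 5 changed sign. The call of 10 of the 16 called members held in every fit, and the exceptions were KIF14, KIFC1, KIF5B, KIF7, KIF9 and KIF21B. Counts moved with the fold threshold. With a threshold of 0.5, 2 kinesins were lower and 2 higher, with 2 mitotic lower, 1 ciliary higher, 1 cargo higher and 0 cargo lower. The share of all genes called at 0.5 was not computed, so these counts cannot be set beside it. With no fold threshold 16 were lower, 11 of them mitotic, beside 2734 of all 15935 genes tested. Scaling by library size alone left 6 lower kinesins, 1 of them a cargo kinesin, beside 1404 lower and 2376 higher of all 15935 genes tested. The medians with that scaling were -0.21 for mitotic and 0.11 for cargo kinesins. Upper-quartile scaling also left 1 lower cargo kinesin, beside 1662 lower of all 15935 genes tested. When each sample was left out in turn, the number of lower cargo kinesins ran from 1 to 2 and the cargo median from 0.0176 to 0.0916. Uncalled cargo members changed sign in these fits, with log2 fold changes from -0.0100 to 0.0935 for KIF1C, -0.0307 to 0.0803 for KIF13A, -0.00712 to 0.101 for KIF16B and -0.196 to 0.248 for KIF21A. With KIF2A and KIF24 moved to the mitotic class, 7 mitotic kinesins were lower, and KIF24 was higher. With KIF3A and KIF3B moved to the cargo class, 3 ciliary and 3 cargo kinesins were higher and 2 cargo kinesins lower. Deviations of same-numbered samples correlated weakly (0.037, 0.0364 and 0.0165), and those of other control and knockdown pairs ran from -0.0524 to 0.019. Control replicates 1 and 2 correlated best with their same-numbered knockdown sample, and control replicate 3 with knockdown replicate 2. Such small values cannot settle whether same-numbered samples were handled together, and no pairing was used. With a replicate block 1848 genes were lower and 1942 higher, and no kinesin call changed. Scarce members near 1 CPM, such as KIF6 and KIF21A, are the most limited by counting.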
